A study of Mus musculus with 16 samples.

Results

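The genes described here are 39 interferon-stimulated genes, measured by bulk RNA sequencing in organoids of the mouse mammary gland, small tissue-like aggregates of cells maintained in culture. They were taken as a named list of genes and matched by symbol in the deposited count table. All 39 were found among the 55487 gene identifiers, and all 39 passed the filter on low counts that left 24252 genes for testing. The 16 samples were WT organoids from normal breast (n = 3) and 3 kinds of mutant organoids from breast tumors: PIK3CA mutant (n = 4), HER2 mutant (n = 4), and double mutant, with both changes (n = 5). The series title names the changes as HER2 V777L and PIK3CA H1047R. The lipid kinase subunit encoded by PIK3CA and the growth factor receptor HER2 are both common drivers of breast cancer. All organoids were grown with epidermal growth factor and with medium conditioned with Rspo1 and Noggin. The strain, the age of the mice, the promoter behind any transgene and whether samples came from separate mice or cultures are not given in the sources used here, so p-values measure only the spread between these samples. Every WT sample came from normal breast and every mutant sample from a tumor. Genotype and tissue source therefore cannot be told apart in the comparisons with WT, nor in the interaction given below, which also uses WT.

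Type I and type III interferons bind receptors that activate the kinases Jak1 and Tyk2. The kinases switch on a transcription factor complex that includes Stat2 and Irf9 and binds the interferon-stimulated response element (ISRE) in the promoters of its target genes, whereas interferon gamma signalling acts mainly through the gamma-activated site (GAS). The targets include RNA sensors that lead to more interferon, enzymes and proteins that block viral growth, and brakes on the pathway such as Usp18. In epithelial cells many of these genes are also transcribed at a low level without infection.

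The promoter sequences are shown first. The list names interferon-stimulated genes, and the complex described above acts through the ISRE. A high share of ISRE letters among them is therefore not an independent result. Windows of 300 bases, from 250 before to 50 after the annotated start, were taken from RefSeq (GRCm38.p6) and matched 28 of the 39 genes. The entries not matched were Zbp1, Dhx58, Oas2, Usp18, Mx1, Mx2, Ifi204, Parp9, Parp14, Rtp4 and Ifi27. The ISRE was searched on both strands as GAAA, any 2 bases and GAAA again, which reads TTTC, any 2 bases and TTTC on the other strand. It was found in 17 of the 28 genes (60.7%), against 3.99% of all 27025 genes with such a window. The GAS, searched as TTCNNNGAA, was found in 8 of the 28 (28.6%), against 9.55% of all genes. In Bst2 and Ifitm3 a GAS match overlapped an ISRE match. A match of letters is a description of the window and does not show that a factor bound there. The 160 bases before the start are printed for 5 genes that recur below, with ISRE matches in capitals. They lie at chr4:156200819-156200978 (minus strand) for Isg15, chr19:34640729-34640888 (plus) for Ifit1, chr19:34583369-34583528 (plus) for Ifit3, chr12:26456453-26456612 (minus) for Rsad2 and chr1:173741810-173741969 (minus) for Ifi207.
Isg15: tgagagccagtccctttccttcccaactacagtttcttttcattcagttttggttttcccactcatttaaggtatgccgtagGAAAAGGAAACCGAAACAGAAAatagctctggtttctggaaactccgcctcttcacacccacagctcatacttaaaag
Ifit1: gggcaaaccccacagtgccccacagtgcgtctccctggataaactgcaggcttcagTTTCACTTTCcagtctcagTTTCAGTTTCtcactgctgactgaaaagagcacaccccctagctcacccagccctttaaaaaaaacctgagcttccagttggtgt
Ifit3: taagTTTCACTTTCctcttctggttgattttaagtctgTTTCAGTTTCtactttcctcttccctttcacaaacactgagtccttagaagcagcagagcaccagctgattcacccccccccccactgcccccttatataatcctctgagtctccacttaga
Rsad2: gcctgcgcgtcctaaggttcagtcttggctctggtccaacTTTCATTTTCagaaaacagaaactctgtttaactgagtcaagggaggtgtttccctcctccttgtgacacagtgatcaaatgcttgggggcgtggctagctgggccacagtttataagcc
Ifi207: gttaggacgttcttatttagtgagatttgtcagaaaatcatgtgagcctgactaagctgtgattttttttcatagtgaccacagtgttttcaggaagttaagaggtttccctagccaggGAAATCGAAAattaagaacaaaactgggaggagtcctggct

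The Isg15 stretch held 3 overlapping matches, which appear as a single run of capitals, and the Ifit1 and Ifit3 stretches held 2 each. Rsad2 and Ifi207 held 1 each. Ifi207, whose levels differed from those of the other members in the samples, thus carried ISRE letters too.

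**Figure D1:**
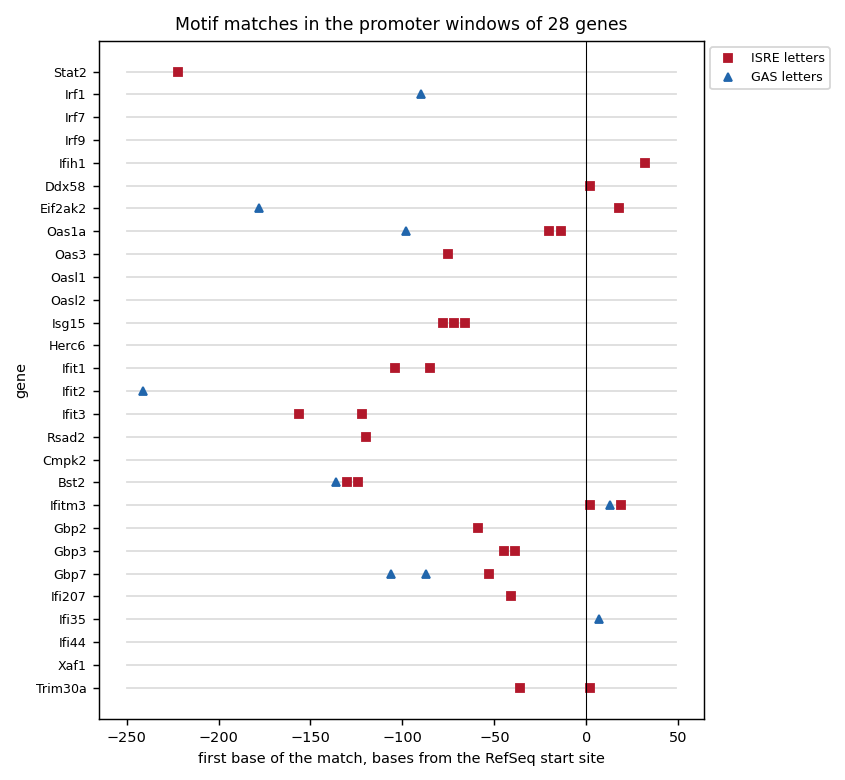
Positions of ISRE and GAS letter matches relative to the annotated start (in bases, x axis) in the RefSeq windows of the 28 matched genes (y axis). ISRE letters were present in 17 of the 28 genes and GAS letters in 8.

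Total counts ranged from 45545182 to 64168308 per sample, so that 3 counts corresponded to 0.0477 to 0.0668 CPM (the library-scaled count unit of edgeR, here with TMM normalisation factors). Epithelial markers were high in every sample, with a summed level of 2174 to 5140 CPM, and all 9 lymphocyte markers averaged below 1 CPM in each genotype. Macrophage markers were present in WT samples and much lower in most mutant samples, as described with Ifi207 below. Fibroblast markers were also lower in mutants, and all 6 were measured: their summed level was 325.2, 1899 and 1558 CPM in WT replicates 1 to 3, 65.1 to 471.4 CPM in PIK3CA mutants, 34.0 to 623.7 CPM in HER2 mutants and 26.2 to 58.0 CPM in double mutants. Against WT, 0 of 6 fibroblast markers were called lower in PIK3CA mutants, 1 in HER2 mutants and 5 in double mutants. Of 3 tested endothelial markers, 1, 1 and 3 were called lower. The share of all tested genes called in these comparisons was 4.52%, 10.4% and 11.8%. In WT the fibroblast order was the reverse of the order of most interferon-stimulated genes given below, and the part of these markers in the results was not tested. On principal components of all other genes, double mutant replicates 2 and 3 stood apart from the other 3 double mutants, at 74.4 and 64.0 on the first component against 30.0 to 34.5. In bulk samples, fewer cells of a type and less RNA per cell cannot be told apart.

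The dominant pattern was that the interferon-stimulated genes differed between organoids of the same genotype, and did so together. In double mutants, replicates 4 and 5 lay above the other 3 replicates for 38 of the 39 genes, Ifi207 being the exception, whereas 13.4% of all tested genes had that order. Replicates 4 and 5 were also the most alike of all same-genotype pairs in their counts across genes. Their chi-square per degree of freedom was 22.3, against 110.1 to 381.8 for the other double mutant pairs. Whether these 2 libraries came from separate mice or cultures is not given. Double mutant replicate 5 held the highest level of all 16 samples for 32 of the 39 genes. In WT organoids, replicate 1 exceeded replicate 3 and replicate 3 exceeded replicate 2 for 34 of the 39 genes (18.2% of all tested genes), the exceptions being Oas2, Oas3, Ifitm3, Ifi204 and Ifi207. PIK3CA mutant replicates 1 and 3 lay above the other 2 for 31 of the 39 genes (20.4% of all tested genes), and HER2 mutant replicates 3 and 4 for 23 (11.7%). These orders were read from the same values that they describe and carry no test.

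**Figure D2:**
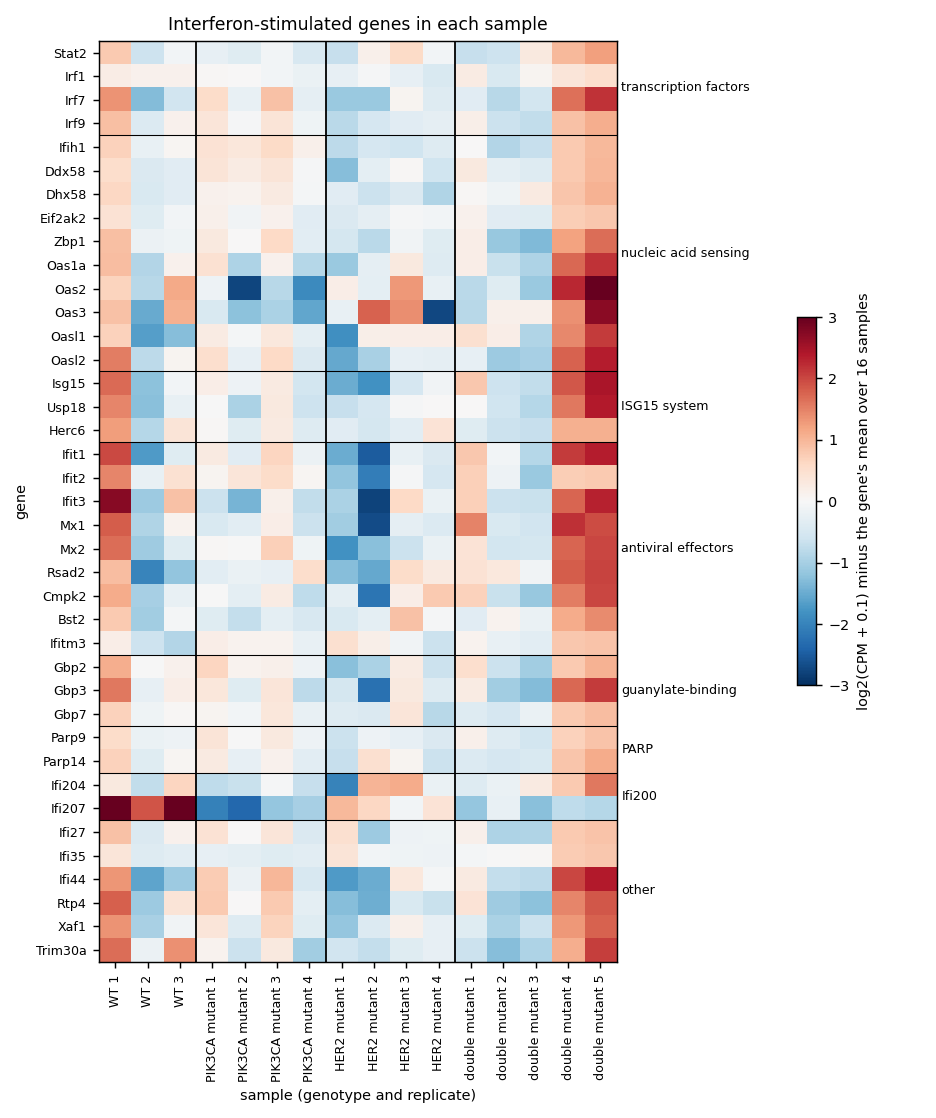
Heat map of the 39 genes (y axis, grouped by role) in the 16 samples (x axis, grouped by genotype), coloured by log2(CPM + 0.1) minus the gene's mean over samples and saturated at 3 log2 units in each direction. Double mutant replicates 4 and 5 and WT replicate 1 stand out as columns of high values, and Ifi207 as a gene that is high in WT alone.

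The spread within genotypes was wider than that of most genes. The median SD of log2 CPM, pooled over the genotypes, was 0.942 for the members and 0.468 for all tested genes, and 34 of the 39 members lay above the latter. By genotype, the members' median SD against that of all tested genes was 0.950 against 0.255 in WT, 0.376 against 0.263 in PIK3CA mutants, 0.582 against 0.486 in HER2 mutants and 0.965 against 0.461 in double mutants. PIK3CA mutant organoids were therefore the most uniform for these genes. The highest sample exceeded the lowest by over 4-fold, on CPM + 0.1, for 16 members in WT, 1 in PIK3CA mutants, 11 in HER2 mutants and 21 in double mutants. Among all tested genes that share was 3.29%, 2.76%, 16.1% and 11.6%. The widest range within each genotype was that of Ifit3 in WT, at 14.1-fold, Oas2 in PIK3CA mutants, at 6.05-fold, Oas3 in HER2 mutants, at 22.3-fold, and Oas2 in double mutants, at 27.6-fold. Irf1, a transcription factor of the interferon response, had the smallest pooled SD at 0.236, and Oas2, an enzyme that makes the second messenger for RNase L, the largest at 1.49.

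**Figure D3:**
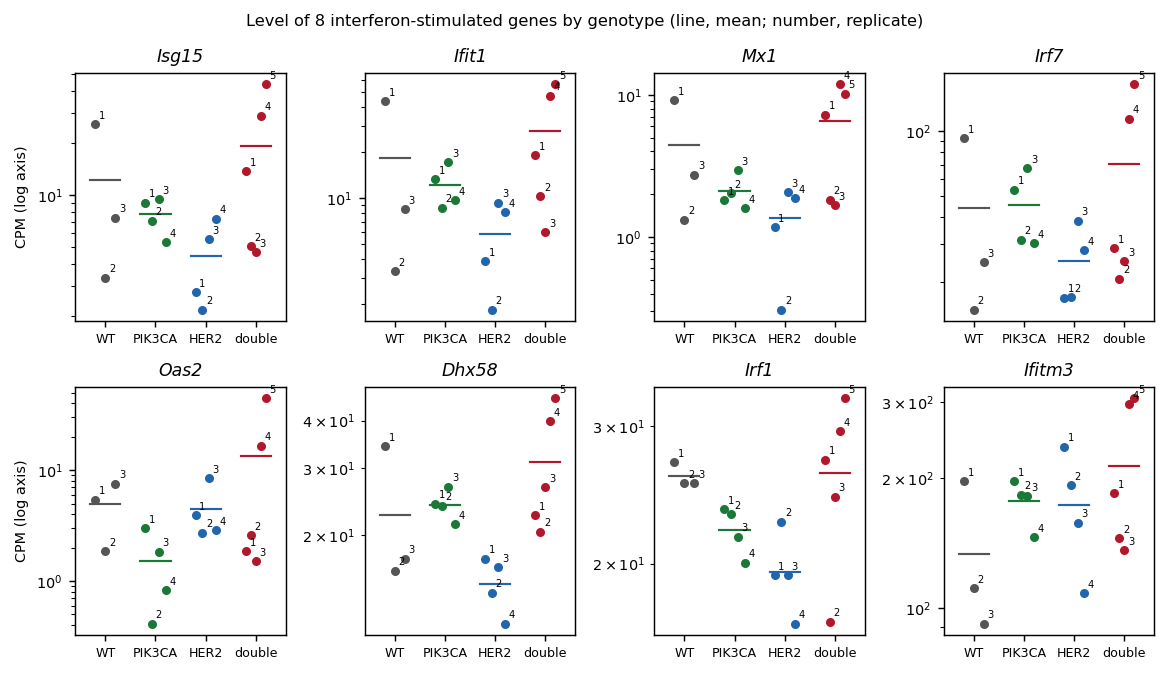
CPM on a log axis (y) of 8 members by genotype (x), with each point a sample and a line at the genotype mean. Isg15, Ifit1, Mx1, Irf7 and Oas2 spread widely within WT and double mutants, while Irf1 stayed within 16.8 to 32.5 CPM in all samples.

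Levels were compared between genes as CPM per kilobase of exon. The median over samples was highest for Ifitm3, which blocks viral entry at endosomal membranes, at 269 CPM per kb. Ifi27 followed at 25.5, Bst2, which tethers budding virus, at 18.9, Ddx58, the RNA sensor RIG-I, at 11.8, and Isg15, a ubiquitin-like modifier, at 9.53. The lowest were Mx1 at 0.516, Herc6, the mouse ligase for Isg15, at 0.346, and Ifi207 at 0.279. The interferon-inducible membrane protein thus stood far above the rest, and the order mixes sensors, effectors and modifiers.

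Between genotypes, few of the members passed the threshold (edgeR adjusted p under 0.05 over all tested genes). Against WT, a single member passed in each mutant genotype, and in each it was Ifi207, which was lower. The share of all tested genes called was 4.52% with the PIK3CA mutation, 10.4% with the HER2 mutation and 11.8% with both, so 1 of 39 was not above the background. The 3 comparisons share the WT samples. Members below WT in every sample numbered 2 in PIK3CA mutants (Irf1 and Ifi207), 4 in HER2 mutants (these and Ifih1 and Trim30a) and 1 in double mutants (Ifi207), and none was above WT in every sample. Genes separated from WT in either direction made up 29.5%, 22.2% and 23% of all tested genes, shares larger than those of the members. Dhx58 was the only member called between double and HER2 mutants, where it was higher (2.5% of all tested genes called). Ifi207 was the only member called between HER2 and PIK3CA mutants, where it was higher in HER2 mutants (4.41% of all tested genes called). No member was called by edgeR between double and PIK3CA mutants (0.672% of all tested genes called). There, 6 members had an unadjusted p under 0.05, and DESeq2 called 1, Oas2 (share of all tested genes called by DESeq2 not given).

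The direction of the estimates, apart from any call, differed by comparison. The log2 fold change was negative for 30 of the 39 members in PIK3CA mutants against WT (median -0.38, all tested genes -0.03). That direction rested on WT replicate 1: without it the median was 0.26 and 31 members were positive, and without WT replicate 2 it was -0.71. In HER2 mutants against WT it was negative for 33 (median -0.62, all tested genes 0.03), but without WT replicate 1 the median was -0.06 and 17 members were positive. It was positive for 30 members in double mutants against WT (median 0.40, all tested genes 0.01). This direction too depended on single libraries: without double mutant replicate 5 the median was -0.04 with 19 members positive, and without WT replicate 1 it was 0.95 with 37 positive. Without WT replicate 2, WT replicate 3 or double mutant replicate 4 it was 0.08, 0.19 and 0.18. Between double and HER2 mutants it was positive for 38 (median 0.99, all tested genes -0.02), and 19 members had an unadjusted p under 0.05. The members varied together between samples, so these are not 19 independent results. The share of all tested genes at the unadjusted threshold is not given for any comparison. Without double mutant replicate 5 the median between double and HER2 mutants was 0.53, with 36 members positive. Replicate 4, also high for most members, stayed in that fit. Double mutant replicates 1 to 3 overlapped the HER2 mutants for 36 of the 39 members. Of the 3 separate members, Dhx58 was above the HER2 mutants, and Oas2 and Ifi207 were below them. The share of all tested genes separated in this way is not given. Between double and PIK3CA mutants the log2 fold change was also positive for 38 (median 0.73, all tested genes 0.04), and without double mutant replicate 5 for 28 (median 0.20). Between HER2 and PIK3CA mutants, a pair without WT or double mutant samples, it was negative for 30 (median -0.25, all tested genes 0.07). Double mutants had the highest mean level of the 4 genotypes for 30 members and HER2 mutants the lowest for 28. The double mutant means include replicates 4 and 5, the highest of that genotype for 38 members. Double and HER2 mutants were separate in every sample for 2 members, Dhx58 (higher in double mutants) and Ifi207 (lower), against 4.59% of all tested genes.

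**Figure D4:**
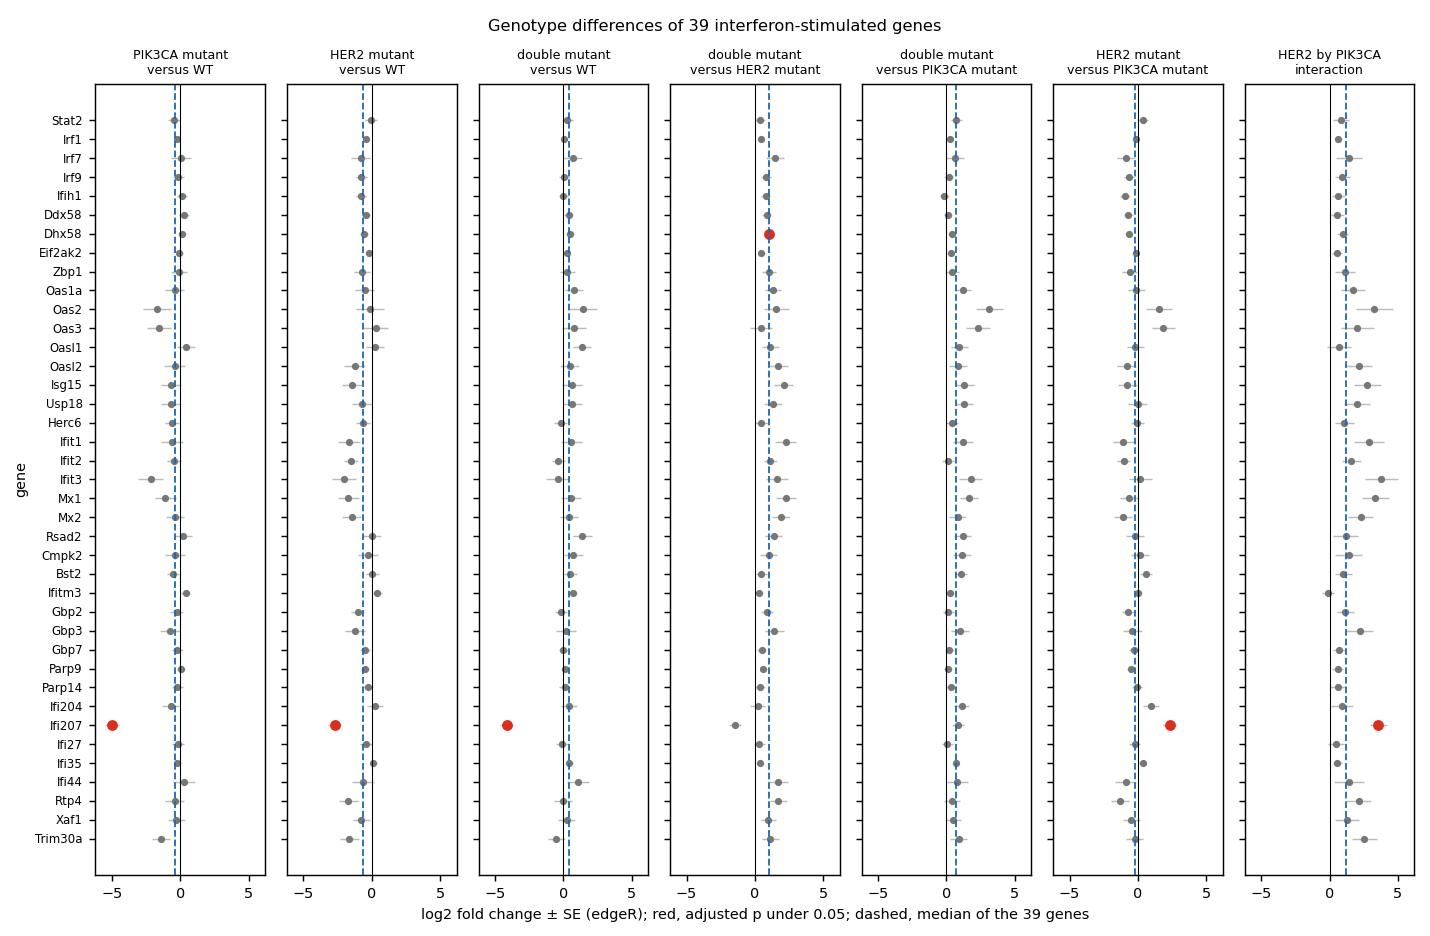
Log2 fold changes (x axis, with SE as grey bars) of the 39 members (y axis) with their median as a dashed line, in a panel for each of the 6 comparisons and the interaction, with called members in red. Ifi207 is called in 5 of the 7 panels and Dhx58 in 1, and the estimates of double against HER2 mutants lie above 0 for 38 of the 39 members.

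Among the transcription factors, Irf7, which drives interferon gene transcription, had 92.6, 14.8 and 24.6 CPM in WT and 53.4, 31.4, 67.5 and 30.2 CPM in PIK3CA mutants. It had 16.9, 16.9, 38.4 and 28 CPM in HER2 mutants and 28.7, 20.6, 24.9, 114.4 and 165.2 CPM in double mutants. The last 2 double mutants were above every other sample, while the first 3 were within the range of HER2 mutants. The log2 difference between double and HER2 mutants was 1.50 (edgeR adjusted p 0.240, SE 0.653). Irf1 varied least: its HER2 mutant levels of 16.8 to 22.6 CPM were all below the WT levels of 25.3 to 26.9 CPM, and the log2 fold change of -0.41 did not pass (edgeR adjusted p 0.166, SE 0.179). Irf1 was likewise below WT in every PIK3CA mutant sample, at 20.1 to 23.5 CPM. None of the 4 factors (Stat2, Irf1, Irf7, Irf9) passed in any comparison. Of these, Irf1 shares exon sequence with the coding gene Gm17334, Irf7 with Phrf1 and Irf9 with Rnf31 in GENCODE M21, so part of their counts may belong to those neighbours.

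The RNA sensors held the called difference between double and HER2 mutants. Dhx58 (ENSMUSG00000017830, chromosome 11, 100694884 to 100704271 in GRCm38, minus strand) encodes LGP2, a helicase that modulates the sensors RIG-I and MDA5. It had 17.4, 14.1, 16.5 and 11.7 CPM in HER2 mutants and 22.5, 20.4, 26.8, 39.8 and 45.7 CPM in double mutants. Every double mutant sample was above every HER2 mutant sample, including replicates 1 to 3. The log2 fold change was 1.06 (edgeR adjusted p 0.0468, SE 0.263). Dhx58 had 34.2, 16.1 and 17.4 CPM in WT and 24.2, 23.9, 26.8 and 21.4 CPM in PIK3CA mutants. It was therefore lower in every HER2 mutant than in every PIK3CA mutant sample, but that difference of -0.69 did not pass (edgeR adjusted p 0.170, SE 0.272). The call was near the threshold: it was lost in 13 of 18 alternatives, with adjusted p from 0.00541 to 0.156, among them the fits without any 1 of the 4 HER2 mutants or without double mutant replicate 1, 3, 4 or 5. Dhx58 also overlaps the antisense gene Dhx58os, whose reads cannot be told apart without strand information.

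Ifih1, which encodes the long-RNA sensor MDA5, had 27.1, 32.5, 30.9 and 35.7 CPM in HER2 mutants. It had 63.1, 58.6, 69.5 and 52.0 CPM in PIK3CA mutants and 75.3, 39.8 and 48.8 CPM in WT, all above the HER2 mutants. Its double mutant levels were 47.2, 25.4, 28.5, 79.8 and 92.0 CPM. Replicates 2 and 3 of the double mutants thus lay within or below the HER2 mutant range and replicates 4 and 5 above every other sample. The log2 difference between HER2 and PIK3CA mutants was -0.95, which did not pass (edgeR adjusted p 0.128, SE 0.339). It passed in a fit of only these 2 genotypes, which called 2 members. The share of all tested genes called in that fit is not given. Ddx58 had 34.1, 68.4, 85.4 and 54.8 CPM in HER2 mutants and 102, 68.3, 64.2, 145.1 and 166.8 CPM in double mutants, with overlapping samples. In WT it had 120.0, 62.3 and 65.8 CPM, and in PIK3CA mutants 109.7, 99.6, 108.9 and 81.6 CPM.

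The 2'-5' oligoadenylate synthetases make the activator of RNase L. Oas2 had 5.40, 1.86 and 7.54 CPM in WT and 3.01, 0.413, 1.84 and 0.822 CPM in PIK3CA mutants. It had 3.90, 2.74, 8.50 and 2.87 CPM in HER2 mutants and 1.86, 2.58, 1.51, 16.6 and 44.4 CPM in double mutants. The first 3 double mutants lay within the PIK3CA mutant range and the other 2 were the highest of all samples. The log2 difference between double and PIK3CA mutants was 3.13 (edgeR adjusted p 0.187, SE 0.978). Oas3 had 3.12, 1.78, 2.19 and 1.41 CPM in PIK3CA mutants and 2.41, 4.85, 4.83, 11.4 and 29.1 CPM in double mutants, a log2 difference of 2.31 that did not pass (edgeR adjusted p 0.267, SE 0.850). Unlike most members, Oas3 was high in HER2 mutant replicates 2 and 3, at 14.9 and 11.5 CPM, and low in replicates 1 and 4, at 3.68 and 0.573 CPM. In WT, Oas3 had 8.11, 1.46 and 9.18 CPM. Of the 10 genes in the RNA-sensing group, Dhx58 alone passed, and in 1 comparison alone.

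Isg15 is conjugated to proteins during the interferon response, and Usp18 removes it and also restrains the receptor. Isg15 had 25.8, 3.32 and 7.41 CPM in WT and 9.05, 7.11, 9.45 and 5.36 CPM in PIK3CA mutants. It had 2.73, 2.18, 5.54 and 7.31 CPM in HER2 mutants and 13.8, 5.06, 4.67, 28.8 and 43.7 CPM in double mutants. WT replicate 1 was higher than every sample but double mutant replicates 4 and 5, and all genotypes overlapped. The log2 difference between double and HER2 mutants was 2.11 (edgeR adjusted p 0.113, SE 0.694), and that between double mutants and WT was 0.66 (edgeR adjusted p 0.606, SE 0.722). None of Isg15, Usp18 and Herc6 passed in any comparison.

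Among the antiviral effectors, Ifit1, which binds viral RNA lacking host cap methylation, had 43.4, 3.32 and 8.49 CPM in WT and 13.3, 8.63, 17.2 and 9.70 CPM in PIK3CA mutants. It had 3.85, 1.85, 9.37 and 8.11 CPM in HER2 mutants and 19.1, 10.3, 5.97, 47.4 and 56.0 CPM in double mutants. As with Isg15, WT replicate 1 was close to double mutant replicates 4 and 5 and the genotypes overlapped (double against HER2 mutants, log2 2.26, edgeR adjusted p 0.123, SE 0.762). Its neighbour Ifit2 had 19.7, 6.02 and 9.68 CPM in WT and 3.04, 1.60, 6.90 and 4.95 CPM in HER2 mutants. HER2 mutant replicate 3 was above WT replicate 2, and the log2 fold change of -1.52 did not pass (edgeR adjusted p 0.0648, SE 0.499). It passed when either of these 2 samples was left out. Ifit2 had 7.39, 9.13, 10.4 and 7.31 CPM in PIK3CA mutants and 11.7, 6.34, 3.22, 11.8 and 12.2 CPM in double mutants.

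The dynamin-like GTPases Mx1 and Mx2 gave the same picture. Mx1 had 9.19, 1.32 and 2.75 CPM in WT and 1.17, 0.308, 2.07 and 1.88 CPM in HER2 mutants. It had 1.81, 2.02, 2.94 and 1.59 CPM in PIK3CA mutants and 7.25, 1.83, 1.67, 11.8 and 10.2 CPM in double mutants. Double mutant replicate 1 joined replicates 4 and 5 here, and replicates 2 and 3 lay among the single mutants (double against HER2 mutants, log2 2.27, edgeR adjusted p 0.0917, SE 0.699). Mx2 had 1.24, 1.87, 2.92 and 4.01 CPM in HER2 mutants, all below the 4.20 to 7.68 CPM of PIK3CA mutants. In double mutants Mx2 had 6.17, 3.10, 3.18, 15.6 and 18.7 CPM, a log2 difference of 1.90 from HER2 mutants (edgeR adjusted p 0.121, SE 0.638). In WT it had 14.9, 2.16 and 3.57 CPM. None of the 9 effectors (Ifit1, Ifit2, Ifit3, Mx1, Mx2, Rsad2, Cmpk2, Bst2, Ifitm3) passed in any comparison. Ifitm3, the most abundant member per kilobase, was one of the exceptions to the WT order, with 196.9, 111.1 and 91.9 CPM, and had its highest double mutant levels in replicates 4 and 5, at 296.4 and 306.1 CPM.

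Of the remaining groups, no member of the guanylate-binding proteins (Gbp2, Gbp3, Gbp7), of the ADP-ribosyltransferases (Parp9, Parp14) or of the 6 other members passed in any comparison. Ifi35 was the member that separated double from PIK3CA mutants in every sample (7.92% of all tested genes were separated). It had 12.2, 11.8, 11.2 and 11.6 CPM in PIK3CA mutants and 13.8, 14.3, 14.7, 24.8 and 25.5 CPM in double mutants. The log2 difference of 0.67 did not pass (edgeR adjusted p 0.215, SE 0.224). In HER2 mutants Ifi35 had 18.9, 13.7, 13.2 and 12.9 CPM, also above every PIK3CA mutant sample, and in WT 18.5, 11 and 11.7 CPM. Between HER2 and PIK3CA mutants, 8 members were separated in every sample (12.5% of all tested genes). Ifi207 and Ifi35 were higher in HER2 mutants, and Irf9, Ifih1, Dhx58, Ifit2, Mx2 and Rtp4 were lower.

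The remaining members differed in which sample was lowest, and most were highest in double mutant replicate 5. Ifi44, a GTP-binding protein, ranged from 6.94 CPM in HER2 mutant replicate 1 to 118.8 CPM in double mutant replicate 5, and Rtp4, a chaperone of membrane receptors, from 5.84 CPM in HER2 mutant replicate 2 to 60.2 CPM in double mutant replicate 5. Oasl2 ranged from 8.28 to 124.1 CPM between HER2 mutant replicate 1 and double mutant replicate 5. WT replicate 1 reached 57.5 CPM for Ifi44, 56.7 CPM for Rtp4 and 70.5 CPM for Oasl2, while WT replicate 2 had 7.62, 7.64 and 14.0 CPM. For these 3 genes a single WT library thus exceeded every single mutant sample, and another lay within the HER2 mutant range. Usp18 had its lowest level in WT replicate 2, at 2.08 CPM, and its highest in double mutant replicate 5, at 26.8 CPM. The same samples held the lowest and highest levels of Rsad2, an enzyme that makes a chain-terminating nucleotide, at 1.82 and 30.8 CPM. Both the brake on the pathway and an effector therefore had their extremes in the same 2 libraries. Zbp1, a sensor of Z-form nucleic acids, ranged from 7.18 CPM in double mutant replicate 3 to 58.4 CPM in double mutant replicate 5, so that its whole range lay within double mutants. Parp14 was higher in HER2 mutant replicate 2, at 81.2 CPM, than in any other single mutant sample. For Herc6, Ifit3, Gbp2 and Ifi27, WT replicate 1 was the highest of the 16 samples, at 9.86, 24.5, 24.5 and 66.0 CPM.

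Ifi207 (ENSMUSG00000073490, chromosome 1, 173723427 to 173741747 in GRCm38, minus strand) belongs to the Ifi200 family of nuclear DNA-binding proteins and behaved unlike the other members. It had 12.8, 5.28 and 21.0 CPM in WT and 0.254, 0.186, 0.554 and 0.625 CPM in PIK3CA mutants. It had 2.77, 2.14, 1.27 and 1.82 CPM in HER2 mutants and 0.550, 1.15, 0.510, 0.757 and 0.700 CPM in double mutants. Every WT sample was above every mutant sample, and every HER2 mutant sample was above every PIK3CA and double mutant sample. Against WT the log2 fold change was -5.00 in PIK3CA mutants (edgeR adjusted p 0.000243, SE 0.517), -2.70 in HER2 mutants (edgeR adjusted p 0.00279, SE 0.466) and -4.15 in double mutants (edgeR adjusted p 0.000153, SE 0.453). HER2 mutants exceeded PIK3CA mutants by 2.30 on the log2 scale (edgeR adjusted p 0.0119, SE 0.461), a call lost in a fit that kept 2 of the 4 HER2 mutants, without replicates 1 and 2, where the difference was 1.93 (adjusted p 0.0686). Double mutants differed from HER2 mutants by -1.45 (edgeR adjusted p 0.0690, SE 0.413) and from PIK3CA mutants by 0.86 (edgeR adjusted p 0.455, SE 0.438). Double mutant replicates 4 and 5, highest for the other members, were not high for Ifi207. Its relative Ifi204 did not pass in any comparison, and reads of these related genes may be split between them.

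Most macrophage markers, like Ifi207, were highest in WT, and most shared its direction between mutant genotypes. HER2 mutants exceeded PIK3CA mutants for 11 of 12 markers (median log2 3.15), with 0 called higher and 1 lower (4.41% of all tested genes called). Double mutants were below HER2 mutants for 10 of 12 (median log2 -4.94), with 7 called lower (2.5% of all tested genes called). The order of single samples within the mutants differed in part. Their summed level, over 11 markers without Cd14, was 1529, 567.3 and 3488 CPM in WT, with replicate 3 highest and replicate 2 lowest, as for Ifi207. That WT order held for 4 of the 39 members (Oas2, Oas3, Ifi204 and Ifi207) and for 18.4% of all tested genes. The summed level was 14.5 to 37.2 CPM in PIK3CA mutants and 13.2 to 68.1 CPM in double mutants. In HER2 mutants it was 226.7, 98.9, 35.3 and 9.58 CPM. Cd14, also made by mammary luminal cells, was left out of the sum. Of the 12 macrophage markers tested, 11 were called lower in PIK3CA mutants, 8 in HER2 mutants and 11 in double mutants against WT. Lyz2, a lysozyme of myeloid cells, had 1109, 404.5 and 2649 CPM in WT. The part of these markers in the fall of Ifi207 was not tested. HER2 mutant replicate 4 had the lowest sum of the 16 samples, with Ifi207 at 1.82 CPM, above every PIK3CA and double mutant sample. Double mutant replicate 2 had a sum of 68.1 CPM with Ifi207 at 1.15 CPM. Cd68 alone made up 65.4 CPM of that sum, with Lyz2 at 0.168 CPM and C1qa at 0.021 CPM. Cd68 was the largest marker in every PIK3CA and double mutant sample and in HER2 mutant replicates 3 and 4. The sum in these samples is therefore mainly the level of 1 gene. Among the samples that were high for the other members, double mutant replicates 4 and 5 had Lyz2 at 0.185 and 0.0389 CPM and the complement gene C1qa at 0.0369 and 0 CPM. WT replicate 1, the highest of the 16 samples for 5 other members, had a macrophage sum of 1529 CPM.

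**Figure D5:**
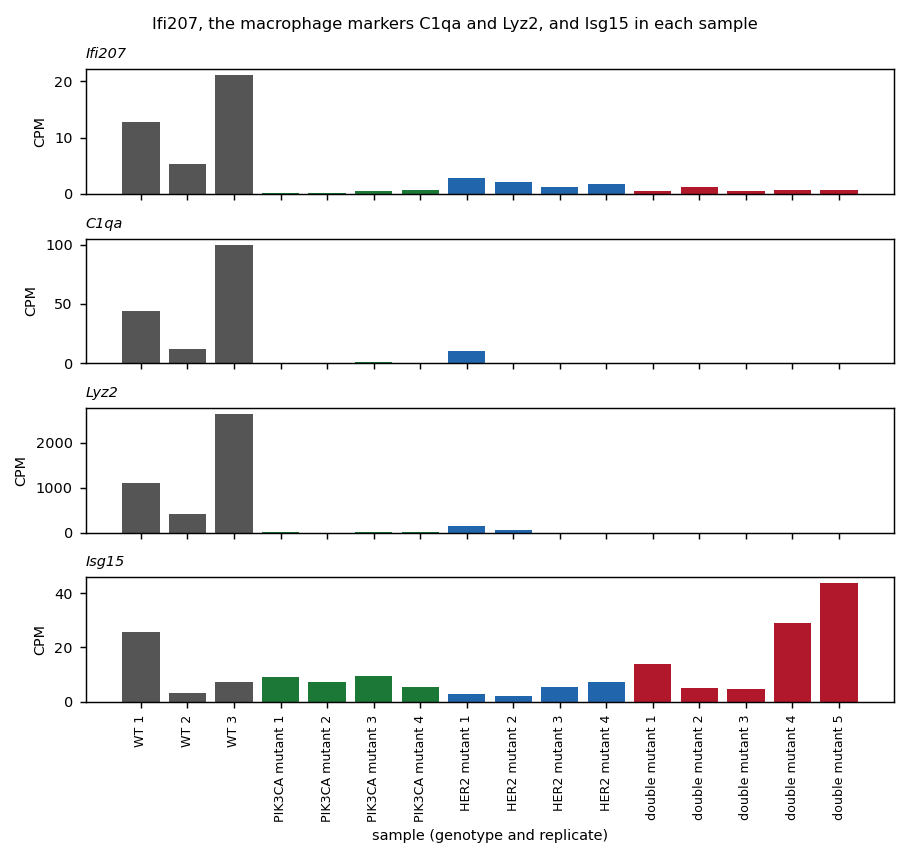
CPM (y axis, bars from 0) of Ifi207, the macrophage markers C1qa and Lyz2, and Isg15 in each of the 16 samples (x axis). Ifi207, C1qa and Lyz2 are high in the 3 WT samples with the same order of these samples, an order that 18.4% of all tested genes had. Isg15 is highest in double mutant replicates 4 and 5.

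The interaction is the log2 change in double mutants beyond what the changes of both single mutants add up to. WT enters it, so a fall from WT shared equally by all mutant genotypes counts as a positive interaction. Genotype and tissue source cannot be told apart in it. The interaction was positive for 38 of the 39 members (median 1.19, all tested genes 0.01). A single member passed, Ifi207 at 3.56 (edgeR adjusted p 0.0158, SE 0.639), against 1.06% of all tested genes called. Double mutants were below every HER2 mutant sample for Ifi207 and overlapped the PIK3CA mutants. The call was lost without WT replicate 3, where the estimate was 3.03 (edgeR adjusted p 0.0652). For the other members, 13 had an unadjusted p under 0.05 and none passed, and without WT replicate 1 the members' median was 0.59. Leaving out double mutant replicates 2 and 3, which stood apart on other genes and were also low for these genes, gave 5 called members for the interaction (4.17% of all tested genes called) and 15 between double and HER2 mutants (4.7%). The double mutant samples kept were those higher for these genes, so the rise in the members' counts follows from the choice of samples.

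The genes upstream of the members were described from a list of 53 pathway genes, of which 33 were tested. Interferon genes themselves were almost silent. The 14 alpha-interferon genes had 2 to 14 counts in all per sample, Ifnb1 0 to 4, the lambda genes Ifnl2 and Ifnl3 together 0 to 5 and Ifng none in any sample. Ifnk, an interferon of epithelia, had 30 to 96 counts per sample. These counts set no order between genotypes.

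Sensors, adaptors and regulators of the pathway gave calls in both directions. Against WT, 1 of the 33 tested genes was higher and 3 were lower in PIK3CA mutants, 1 higher and 4 lower in HER2 mutants, and 1 higher and 3 lower in double mutants, beside the 4.52%, 10.4% and 11.8% of all tested genes called in these comparisons. Tlr7, an endosomal RNA receptor of myeloid cells, was lower in all 3. It had 425, 146 and 961 counts in WT, 0 or 1 in each PIK3CA and double mutant sample and 37, 26, 0 and 6 in HER2 mutants. Irf8, a myeloid transcription factor, was lower in PIK3CA and double mutants, with log2 fold changes of -5.50 and -5.86. Both fell along with the macrophage markers, whose part was not tested. Socs1, an inhibitor of the Jak kinases, was lower in PIK3CA mutants (log2 -1.04) and in HER2 mutants (-1.01) against WT. In the interaction, 1 of the 33 genes was called higher, Socs1 at 1.54, and 1 was called lower (1.06% of all tested genes called). Genotype and tissue source cannot be told apart in it. Ptpn2, a phosphatase that restrains the pathway, was higher in double mutants, by 0.65 on the log2 scale against WT and by 0.58 against HER2 mutants. Myd88, an adaptor of Toll-like receptors, was lower in HER2 mutants against WT (-0.81) and Ikbke, a kinase that activates Irf3 and Irf7, was higher (0.91). Samhd1, a nucleotide hydrolase that restricts viruses, was lower in double mutants against WT (-1.01). Between double and HER2 mutants 1 of the 33 genes was called higher and 1 lower (2.5% of all tested genes called). Between HER2 and PIK3CA mutants the counts were also 1 higher and 1 lower (4.41%). Between double and PIK3CA mutants none of the 33 genes was called by edgeR, and 4 had an unadjusted p under 0.05.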

How the data were processed

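The authors deposited read counts by Ensembl gene and sample, and a table of normalized signal values, which were found to be the counts divided by a factor per sample. The submitters' processing notes name bcl2fastq 2.20, STAR 2.0.4b, Subread with featureCounts 1.4.5, DESeq2 1.33.5 and mm10, with no role or order. Strandedness and the annotation release are not given in the sources used here. Of 55774 entries, 287 repeated an identifier and were dropped.

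Here the counts were filtered with filterByExpr and scaled with TMM factors. Genotypes were compared with edgeR 4.0.16 (quasi-likelihood test, two-sided) in R 4.3.3, in a single fit of all 16 samples. Benjamini-Hochberg adjustment covered the 24252 tested genes of each comparison, with a threshold of 0.05. The SE is the absolute log2 fold change over the square root of F, and a prior count of 2 entered log2 CPM. The script was tested on simulated data. Alternatives were median-of-ratios and upper-quartile scaling, no filter, a replicate block, DESeq2 1.42.0, limma 3.58.1 on log2(normalized value + 1), a fit of only the compared genotypes and leaving out samples.

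The members and gene lists were chosen with earlier results of these data known. Values per sample are given for the 12 members with the lowest p in any pair of genotypes. Irf1, Irf7, Ifitm3 and the pathway genes were named in addition, after their values were seen. Positions, exon lengths and overlaps come from GENCODE M21 (GRCm38) and promoters from RefSeq. The Ifi200, Ifit, Oas, Mx, Gbp and Trim30 families hold close copies, so their counts are less certain. Replicate numbers from the titles were checked for pairing: in no comparison did every same-numbered pair correlate above 0.1, so the main design has no block. No pair of libraries agreed within sampling noise, and double mutant replicates 4 and 5 came closest (chi-square per degree of freedom 22.3). A gene of the pathway list is not reported here.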

Additional observations from a re-analysis of the deposited data

Results flagged for a closer look

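Of 117 groups of 4 or 5 samples examined, 5 held a sample far from the others by Dixon's 95% criterion, a rate that chance gives in about 1 in 20 groups. Oasl1 was lowest in HER2 mutant replicate 1, at 1.85 CPM against 7.77 CPM in the nearest sample. Ifi35 was highest in the same sample, at 18.9 CPM against 13.7 CPM. In PIK3CA mutants, replicate 3 was highest for Mx2, at 7.68 CPM against 4.71 CPM, and for Ifi204, at 4.45 CPM against 2.81 CPM. Rsad2 was highest in PIK3CA mutant replicate 4, at 10.9 CPM against 6.49 CPM. The change of Ifi207 with the PIK3CA mutation differed between organoids without and with the HER2 mutation. The interaction was 3.56 on the log2 scale (edgeR adjusted p 0.0158). Without the HER2 mutation the change is taken from WT, so tissue source enters this difference and cannot be told apart from genotype.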

How the results depend on the processing

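Ifi207 was called lower than WT in every alternative run, for each of the 3 mutant genotypes, and no direction of a called result reversed. Its interaction was lost with the replicate block (3.63, edgeR adjusted p 0.0827) and without WT replicate 3. In HER2 mutants against WT, DESeq2 called 2 members, beside 15.5% of all tested genes. Between double and HER2 mutants, where 1 was called, there were 0 with upper-quartile scaling, 0 with limma, 0 in a fit of only these genotypes (0.168% of all tested genes called) and 6 with DESeq2 (7.07%), of which Ifi207 was lower. Of double against PIK3CA mutants DESeq2 called 1, and of the interaction 3. HER2 against PIK3CA mutants gave 2 in a fit of only these genotypes. The shares of all tested genes called in these fits are not given, so the counts are not read as results about the members. Further omissions were chosen after seeing the data. Without double mutant replicates 2 and 3, there were 15 called between double and HER2 mutants (4.7% of all tested genes) and 5 for the interaction (4.17%). Without HER2 mutant replicates 1 and 2, there were 0 called between double and HER2 mutants and 0 between HER2 and PIK3CA mutants. The causes were not tested.

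Leaving out each replicate in turn gave 1 to 1 called members in PIK3CA mutants against WT. In HER2 mutants against WT it gave 1 to 2. Ifit2 was added there without WT replicate 2 (7.11% of all tested genes called) or HER2 mutant replicate 3 (7.78%). In double mutants against WT there were 1 to 2, with Rsad2 added without WT replicate 1 (6.33%). Between double and HER2 mutants there were 0 to 2, with Irf1 added without double mutant replicate 2 (2.19%). The same omissions gave 0 to 0 between double and PIK3CA mutants, 1 to 1 between HER2 and PIK3CA mutants and 0 to 1 for the interaction.

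With the replicate number as a block, 0 members were called between double and HER2 mutants and 0 for the interaction, against 1 each without it. Between double and HER2 mutants the share of all tested genes called fell as well, from 2.5% to 0.487%. Dhx58 was at 0.87 there (edgeR adjusted p 0.156). The share for the interaction with the block is not given. Whether the numbers mark shared mice or batches is not stated. For double and HER2 mutants, same-numbered samples correlated at 0.0711 to 0.273 (mean 0.157, other pairs -0.0407), and 4 of 8 samples correlated best with their own number, a hint from the data, not the design. Replicate 5 exists only in double mutants, so the block absorbs it, and the median log2 fold change of double mutants against WT was then -0.12, with 12 members positive, and that against PIK3CA mutants 0.08, with 22 positive. Of 21 interferon genes, 2 (Ifnk and Ifnz) had enough counts for a test, and neither passed. WT had 3 samples, which limits every comparison with it.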
